A study of Mus musculus with 26 samples.

Results

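The genes described here are the prolyl 4-hydroxylase subunits *P4ha1*, *P4ha2* and *P4ha3* and the lysyl hydroxylases *Plod1*, *Plod2* and *Plod3*. With them are the collagen chaperone *Serpinh1* and the lysyl oxidases *Lox*, *Loxl1* and *Loxl2*. These 10 enzymes and helpers modify, chaperone or cross-link collagen. They were chosen by symbol and function, all 10 were found among the 52962 genes of the count table, and all 10 were among the 15402 genes tested. The question was whether mRNA of this machinery followed fibrillar collagen mRNA across 9 groups of mouse brown preadipocytes. RNA was sequenced from cells in which both IR and IGF1R had been inactivated (DKO) and from DKO cells to which a human receptor had been returned: the full IR, a form without kinase activity (K1030R), a form that lacks its last 79 residues (∆CT), or one that keeps only 36 juxtamembrane residues of its intracellular part (JMO). All cells had 6 h without serum, and the 4 receptor lines were also sampled after 15 min with 100 nM insulin; DKO cells were sampled without insulin only. Each group had 3 libraries, and ∆CT with insulin had 2, for 26 in all.

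All lines share a common origin: preadipocytes of newborn mice with floxed IR and IGF1R genes, immortalized with SV40 T-antigen. They were treated with Cre from an adenovirus. The resulting DKO cells were then transduced with a retrovirus that carried a receptor or an empty vector, and selected with hygromycin. Each receptor is therefore 1 transduced line, and nothing in the labels ties the libraries of a group to separately made lines. The p-values measure the spread between these libraries, which may be technical.

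Procollagen chains are hydroxylated on prolines and lysines in the endoplasmic reticulum before they fold into a triple helix. The hydroxyprolines hold the helix together at body temperature, and the chaperone HSP47, the product of *Serpinh1*, binds the folded helix and travels with it toward the Golgi. Outside the cell, lysyl oxidases oxidize lysines and hydroxylysines so that neighboring molecules cross-link into fibrils. The hydroxylases need iron, 2-oxoglutarate and ascorbate, and the lysyl oxidases need copper.

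Summed gene counts ran from 17228982 to 24694828 per library, and levels are given as CPM, counts scaled to a common library size with trimmed means of M-values. The mesenchymal markers *Pdgfra* (157 to 293 CPM over the 26 libraries), *Pdgfrb* (532 to 639) and *Vim* (1166 to 1892) were present. From the same marker list, *Ly6a* (2.27 to 49.1), *Cd34* (2.93 to 15.6) and *Thy1* (5.85 to 29.7) were lower and varied widely between libraries. The preadipocyte marker *Dlk1* was at 0.103 CPM or less in every library. The adipocyte markers *Cidec* and *Lep* and the myogenic markers *Myf5* and *Myod1* were at 0 counts in all libraries. Summed CPM per library ran from 0.551 to 4.88 for 6 adipocyte markers, from 1.75 to 4.74 for 4 myogenic, from 7.0 to 17.5 for 4 endothelial (mostly *Pecam1*, 6.82 to 17.3), from 2.26 to 4.64 for 4 leukocyte and from 0 to 1.04 for 4 epithelial markers, and their part in the results was not tested. Counts assigned to *Insr* were 23.8 ± 1.32 CPM (SD, n = 3) in DKO cells and 67.6 to 78.3 (group means) in the 4 receptor lines without insulin. Reads of the human receptor could be counted only where they matched the mouse transcript. *Igf1r* had 27.0 ± 2.06 CPM in DKO and 35.1 ± 0.672 in IR cells, and a gene-level count cannot show whether the floxed part is missing.

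Per kilobase of the longest annotated transcript, *Lox* was by far the most abundant of the 10, with 1108 CPM per kb in DKO cells. *Serpinh1* followed with 166, *Plod2* with 80.7, *P4ha1* with 62.6, *Loxl1* with 54.7, *Loxl2* with 41.6, *Plod3* with 39.5, *P4ha2* with 26.6 and *Plod1* with 25.4, and *P4ha3* was lowest at 3.81. Each family thus had a leading member on this per-length scale in DKO cells. *Lox* made up 92.0% of the 3 lysyl oxidases, *P4ha1* 67.3% of the 3 prolyl hydroxylase subunits and *Plod2* 55.4% of the 3 lysyl hydroxylases. In IR cells the share of *Plod2* was 61.9%, that of *P4ha1* 70.4% and that of *Lox* 91.9%. The order depends on transcript length. With the mean length of the annotated transcripts, *Plod3* (71.5 CPM per kb), *P4ha2* (69.4) and *Plod1* (62.1) stood above *Loxl1* (54.7) and *Loxl2* (53.0) in DKO cells. On that scale *P4ha1* still led its family in DKO cells, but with 52.2%.

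The yardstick was the summed level of the 11 fibrillar collagen genes. Without insulin it was 8319.8 ± 254 CPM in DKO and 8944 ± 35.5 in JMO cells (mean ± SD over 3 libraries), and 18403 ± 762, 14454 ± 331 and 15463 ± 477 with IR, K1030R and ∆CT. As a ratio to DKO cells, IR cells stood at 2.21, K1030R at 1.74, ∆CT at 1.86 and JMO at 1.08. *Col1a1*, the main chain of type I collagen, had log2 fold changes against DKO of 1.15, 0.90, 0.96 and 0.19 in IR, K1030R, ∆CT and JMO cells, and its partner *Col1a2* 1.11, 0.78, 0.88 and 0.07. *Col3a1*, the chain of type III collagen, spread the most of the 5 collagens named here, with 1.41, 0.55, 0.86 and -0.59 in the same order. *Col5a1* and *Col5a2*, which encode minor chains that join type I fibrils, had 0.85, 0.73, 0.76 and -0.02 and 0.64, 0.66, 0.67 and 0.53.

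The processing genes did not move as a block, and none rose as far as *Col1a1* in IR, K1030R or ∆CT cells. *Serpinh1* rose in all 4 receptor lines, *Plod2* and *Loxl2* rose in the 3 lines that keep most or all of the intracellular domain, and *P4ha1* rose in IR and ∆CT cells. *Loxl1* fell in every receptor line, and no change of *Lox* or *Plod3* against DKO passed the test. At an adjusted p below 0.05 (Benjamini-Hochberg adjusted, quasi-likelihood test of edgeR over all 15402 genes), 5 of the 10 genes were higher and 1 lower in IR cells, where 49.8% of all genes tested were called (25.6% higher and 24.1% lower). For K1030R the counts were 3 higher and 1 lower (41.6% of all genes, 21.2% higher and 20.4% lower), for ∆CT 4 and 1 (46.3%, 23.4% and 22.9%), and for JMO 3 and 3 (34.2%, 16.8% and 17.4%). With so many genes called at small changes, the share of members called was near that of all genes for IR, K1030R and ∆CT, and the sizes of the changes carry the description. Tested against a minimum fold of 1.5 (edgeR's glmTreat), *Serpinh1* was the 1 member called for IR (6.89% of all genes) and for ∆CT (6.29%), and 0 were called for K1030R (5.29%) and JMO (2.11%); DESeq2 and limma voom gave the same counts under this rule. At an unadjusted p under 0.05 with no minimum fold, 5 members passed in K1030R and 6 in JMO cells. The share of all genes at that rule was not counted, but it is at least the 41.6% and 34.2% called after adjustment. For IR the median log2 fold change of the 10 members was 0.18, for K1030R 0.06, and for ∆CT and JMO 0.04 each, beside 0.01 over all genes in every case. The 4 comparisons share the DKO libraries. In bulk RNA, fewer cells of a type and less RNA per cell cannot be told apart.

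**Figure D1:**
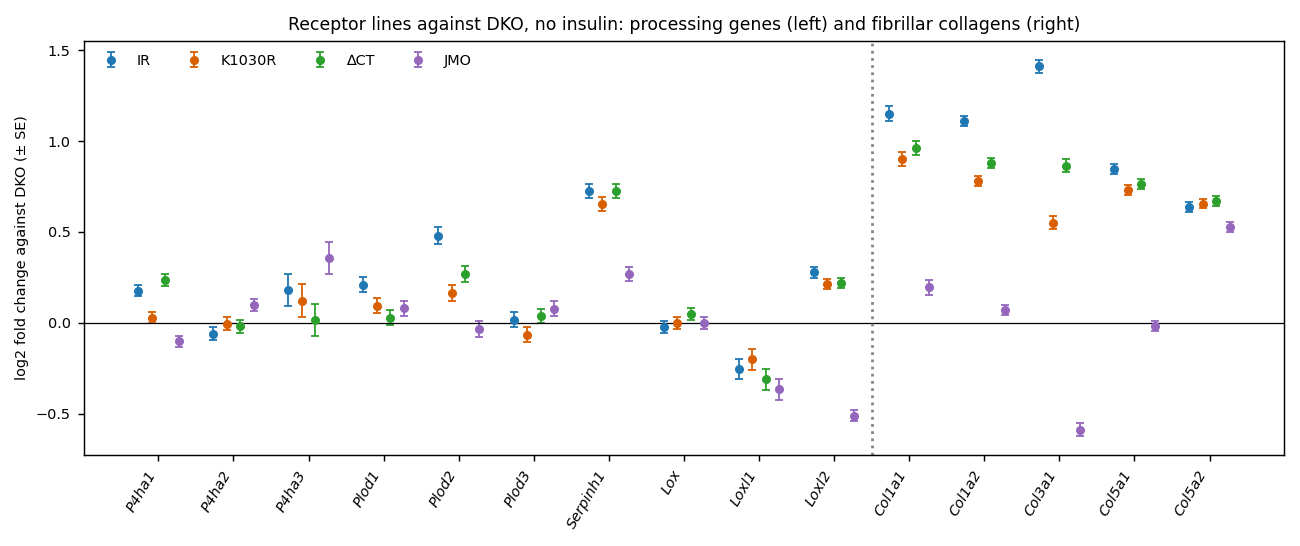
Log2 fold change against DKO cells without insulin (y axis, edgeR, bars are SE) for the 10 processing genes and, right of the dotted line, 5 fibrillar collagens, in IR, K1030R, ∆CT and JMO cells (3 libraries per group). The points of the processing genes lie between -0.51 and 0.73, while *Col1a1* reached 1.15 and *Col3a1* 1.41 in IR cells.

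*Serpinh1* (ENSMUSG00000070436, chromosome 7:99345376-99353239, minus strand; GRCm38, GENCODE M21, as for all positions of genes here) encodes HSP47, the collagen-specific chaperone. It had 364, 372 and 397 CPM in the 3 DKO libraries and 441, 457 and 469 in the JMO ones, against 663, 631 and 583 with IR, 583, 593 and 608 with K1030R and 637, 614 and 626 with ∆CT. The 9 libraries of IR, K1030R and ∆CT cells all lay above the 3 JMO libraries, which in turn all lay above the 3 DKO libraries. The log2 fold changes against DKO were 0.73 ± 0.0390, 0.65 ± 0.0390, 0.73 ± 0.0390 and 0.27 ± 0.0389 (± SE) in IR, K1030R, ∆CT and JMO cells, with adjusted p of 2.3e-17, 7.0e-16, 2.9e-17 and 1.1e-06 (Benjamini-Hochberg adjusted, quasi-likelihood test of edgeR). Against IR cells the log2 differences were -0.07 ± 0.0386 for K1030R and 0.000031 ± 0.0386 for ∆CT, neither past the test (adjusted p = 0.16 and 1). JMO cells were below IR cells, with a log2 difference of -0.46 (adjusted p = 5.5e-12). The K1030R difference from IR passed without IR basal replicate 3, and without DKO replicate 3 *Serpinh1* was also called at the minimum fold in K1030R cells.

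Promoter sequences from RefSeq (GRCm38.p6) were read for 6 of the 10 genes, and *Lox* was not searched. Of these, 2 are shown as examples: *Serpinh1*, which rose in every receptor line, and *Plod3*, for which no change against DKO passed the test. The sequences are the 250 bases before the annotated start, chr7:99353240-99353489 on the minus strand and chr5:136986769-136987018 on the plus strand, written 5′ to 3′ along the gene. Capitals mark the GC box (GGGCGG on either strand) and the CCAAT box (CCAAT on either strand).
Serpinh1: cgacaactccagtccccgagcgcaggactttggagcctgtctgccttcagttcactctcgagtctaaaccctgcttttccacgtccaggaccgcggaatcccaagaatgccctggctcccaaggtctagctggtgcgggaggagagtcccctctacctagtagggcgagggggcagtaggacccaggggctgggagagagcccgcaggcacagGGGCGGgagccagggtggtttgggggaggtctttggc
Plod3: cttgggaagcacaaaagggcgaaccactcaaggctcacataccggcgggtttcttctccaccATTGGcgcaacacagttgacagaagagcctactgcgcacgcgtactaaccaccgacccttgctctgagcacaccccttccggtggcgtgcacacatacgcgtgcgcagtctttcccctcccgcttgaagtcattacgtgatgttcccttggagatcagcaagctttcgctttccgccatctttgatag
The *Serpinh1* window held 1 GC box and 0 CCAAT boxes, and the *Plod3* window 0 GC boxes and 1 CCAAT box. The other windows read also held GC boxes, 1 for *P4ha1*, 2 each for *P4ha2* and *Plod1* and 5 for *P4ha3*, with 0 CCAAT boxes. The contrast between the windows shown thus does not extend to the rest, and a link of these boxes to the changes was not tested. Among all 27025 promoter windows of this length, 32.9% held the GC box letters and 34.5% the CCAAT letters. The heat shock element letters GAANNTTC and TTCNNGAA, each the same on both strands, matched neither the *Serpinh1* nor the *Plod3* window. Of all windows, 12.9% held 1 or the other.

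Of the lysyl hydroxylases, *Plod2* (ENSMUSG00000032374, chromosome 9:92542223-92608428, plus strand), which modifies the telopeptide lysines used in stable cross-links, moved the most. It had 293, 297 and 297 CPM in the 3 DKO libraries and 282, 289 and 295 in the JMO ones, against 399, 399.5 and 438 with IR, 320.3, 340.5 and 332 with K1030R and 333, 352 and 384 with ∆CT. All IR libraries were above all others, K1030R and ∆CT overlapped each other above DKO, and DKO and JMO overlapped. The log2 fold changes against DKO were 0.48 ± 0.0455, 0.16 ± 0.0457, 0.27 ± 0.0456 and -0.03 ± 0.0457 in IR, K1030R, ∆CT and JMO cells (adjusted p = 3.1e-10, 0.0043, 1.3e-05 and 0.61). *Plod2* was also lower in K1030R than in IR cells, with a log2 difference of -0.32 ± 0.0454 (adjusted p = 2.6e-06), and lower in ∆CT than in IR cells, with -0.21 ± 0.0453 (adjusted p = 6.6e-04).

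*Plod1* (ENSMUSG00000019055, chromosome 4:147909753-147936767, minus strand), which hydroxylates lysines of the triple helix, had 98.8, 106 and 107 CPM in the 3 DKO libraries and 106, 109 and 116 in the JMO ones, against 123, 124 and 116 with IR, 112, 113 and 109 with K1030R and 111, 100.1 and 108 with ∆CT. The IR libraries were the highest group by mean, yet the lowest of them lay within the JMO range. *Plod1* rose against DKO only in the IR comparison among the 4 (log2 0.21 ± 0.0402, adjusted p = 4.1e-05), and it was 0.09 in K1030R cells (adjusted p = 0.061), a value that passed the test without DKO replicate 3 (0.12, adjusted p = 0.041), IR basal replicate 3 (0.09, 0.0497) or ∆CT basal replicate 2 (0.09, 0.044). *Plod3* (ENSMUSG00000004846, chromosome 5:136987019-136996648, plus strand), which also carries the glucosyltransferase activity of the family, ranged from 122 to 140.4 CPM over the 15 basal libraries, and its 4 log2 fold changes against DKO, 0.02, -0.06, 0.04 and 0.08, did not pass the test.

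Of the prolyl 4-hydroxylase subunits, which form a tetramer with the protein disulfide isomerase *P4hb*, the leading one moved. *P4ha1* (ENSMUSG00000019916, chromosome 10:59323296-59373304, plus strand) had 255, 251 and 253 CPM in the 3 DKO libraries and 230.4, 237 and 239.6 in the JMO ones, against 285, 291 and 282 with IR, 267, 253 and 253 with K1030R and 305, 302 and 286 with ∆CT. IR and ∆CT libraries lay above all DKO libraries, K1030R overlapped DKO, and the JMO libraries were the lowest 3. Its log2 fold changes against DKO were 0.18 ± 0.0311, 0.03 ± 0.0313, 0.23 ± 0.0311 and -0.10 ± 0.0312 in IR, K1030R, ∆CT and JMO cells (adjusted p = 1.2e-05, 0.52, 9.6e-08 and 0.01). The fall in JMO cells did not pass the test without JMO basal replicate 1 (-0.08, adjusted p = 0.067). *P4ha1* was lower in K1030R than in IR cells, with a log2 difference of -0.15 ± 0.0312, and higher in ∆CT than in K1030R cells, with 0.21 ± 0.0312 (adjusted p = 3.0e-04 and 4.9e-05).

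*P4ha2* (ENSMUSG00000018906, chromosome 11:54100095-54131665, plus strand) stayed between 76.6 and 88.6 CPM in the basal libraries, and its highest 3 values were those of JMO cells, 85.0, 87.5 and 88.6. Against DKO it was 0.10 ± 0.0348 in JMO cells (adjusted p = 0.027), a call lost without DKO replicate 1 or 2 or JMO replicate 2 or 3 (adjusted p from 0.064 to 0.11) and with DESeq2 (0.093). *P4ha3* (ENSMUSG00000051048, chromosome 7:100285520-100319699, plus strand), the rarest subunit, had 9.45, 9.08 and 8.92 CPM in the 3 DKO libraries and 11.9, 12.1 and 11.1 in the JMO ones, against 10.8, 9.93 and 10.3 with IR, 10.5, 9.76 and 9.57 with K1030R and 8.86, 8.43 and 10.4 with ∆CT. The 3 JMO libraries were the highest of the 15. Only the JMO value passed the test against DKO (log2 0.36 ± 0.0871, adjusted p = 0.0014), and its other values were 0.18 with IR, 0.12 with K1030R and 0.01 with ∆CT.

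The 3 lysyl oxidases gave 3 different patterns. *Lox* (ENSMUSG00000024529, chromosome 18:52516067-52529867, minus strand), the founding copper enzyme of the family, had 5347, 5260.3 and 5150.5 CPM in the 3 DKO libraries and 5343, 5425 and 4964 in the JMO ones, against 5197, 5176 and 5153 with IR, 5356, 5229.7 and 5147 with K1030R and 5367, 5539 and 5385 with ∆CT. The groups overlapped except that the ∆CT libraries lay above those of DKO, IR and K1030R, and the log2 fold changes against DKO were -0.02 ± 0.0326, -0.0023 ± 0.0327, 0.05 ± 0.0326 and -0.0023 ± 0.0326, none past the test (adjusted p from 0.24 to 0.97 by edgeR). The span of its 5 basal group means was 0.07 on the log2 scale, and 0.928% of the genes tested had a smaller one.

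*Loxl1* (ENSMUSG00000032334, chromosome 9:58287738-58313186, minus strand), known for its part in elastic fibers, had 181, 174 and 186 CPM in the 3 DKO libraries and 143, 143 and 135 in the JMO ones, against 168, 151 and 134 with IR, 167, 154 and 150.3 with K1030R and 142, 146 and 148 with ∆CT. All 12 libraries of the receptor lines lay below the 3 DKO libraries, and among those lines most ranges overlapped. The log2 fold changes against DKO were -0.25 ± 0.0571, -0.20 ± 0.0573, -0.31 ± 0.0573 and -0.37 ± 0.0572 in IR, K1030R, ∆CT and JMO cells (adjusted p = 6.6e-04, 0.0067, 8.5e-05 and 2.2e-05). *Loxl1* thus went the opposite way to summed collagen in IR, K1030R and ∆CT cells.

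*Loxl2* (ENSMUSG00000034205, chromosome 14:69609068-69695834, plus strand), a secreted oxidase that acts on type IV and fibrillar collagen, had 216, 229.8 and 218 CPM in the 3 DKO libraries and 155, 159 and 152 in the JMO ones, against 268, 276 and 261 with IR, 258, 256 and 256 with K1030R and 260.0, 262 and 252 with ∆CT. Every IR, K1030R and ∆CT library lay above every DKO library, and every JMO library lay below it. The log2 fold changes against DKO were 0.28 ± 0.0295, 0.21 ± 0.0296, 0.22 ± 0.0296 and -0.51 ± 0.0300 in IR, K1030R, ∆CT and JMO cells (adjusted p = 8.9e-10, 3.0e-07, 1.3e-07 and 1.4e-15). JMO cells were below IR, K1030R and ∆CT cells, with log2 differences of -0.79, -0.73 and -0.73. Each of these 3 differences was called at the minimum fold, as were 4.59%, 3.64% and 4.5% of all genes, and no other member was.

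**Figure D2:**
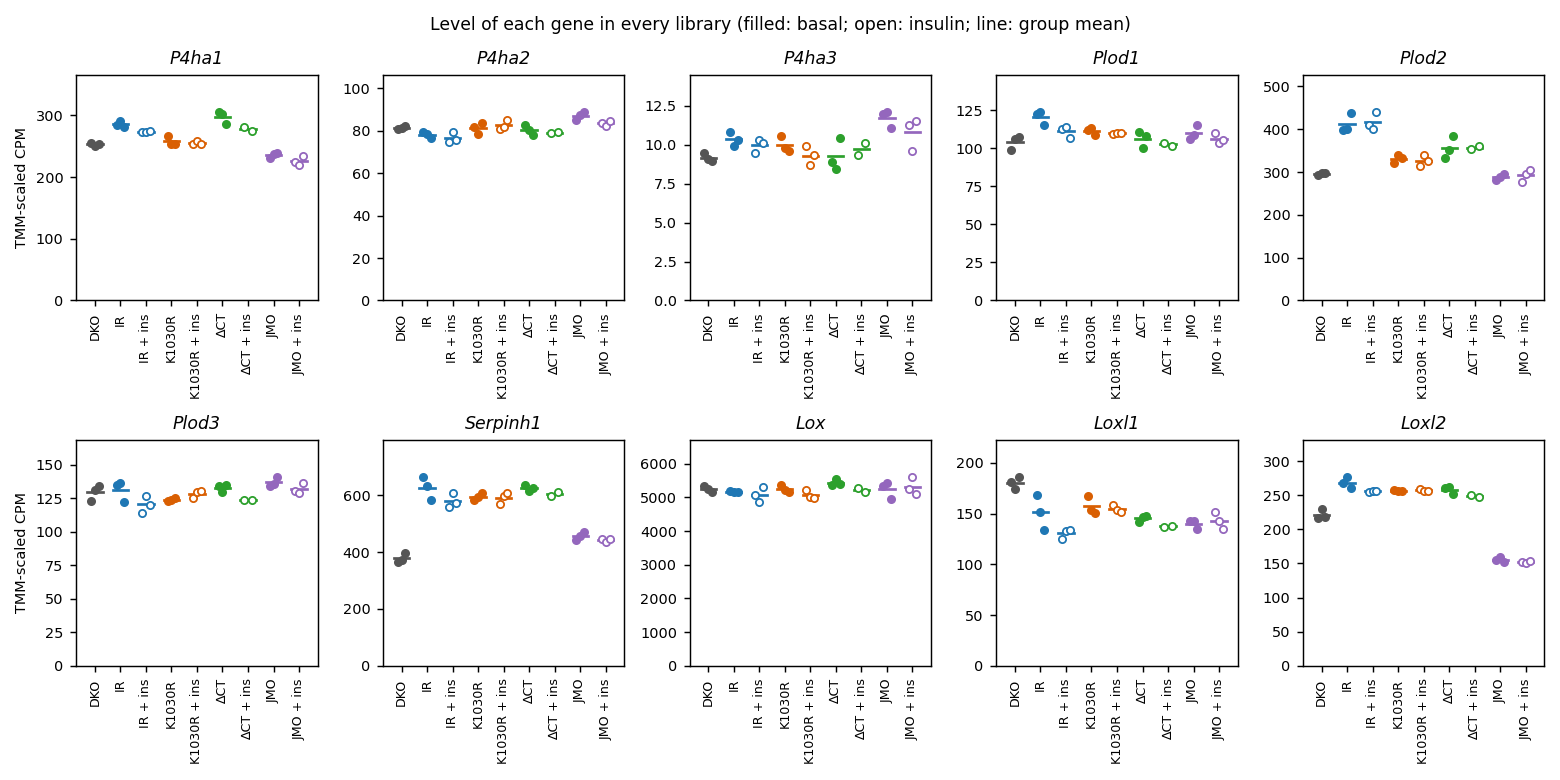
Level of each of the 10 genes (y axis, CPM scaled by trimmed means of M-values, starting at 0) in each of the 26 libraries, by group, with a line at the group mean. *Serpinh1* steps up from DKO through JMO to the other 3 lines, *Loxl2* is lowest in JMO at 152 to 159 CPM without insulin, and *Lox* stays between 4875 and 5592 CPM in every group.

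When basal IR, K1030R and ∆CT cells were averaged and set against the average of basal DKO and JMO cells, 5 of the 10 genes were higher and 1 was lower (adjusted p below 0.05; 52.3% of all genes tested were called, 26.7% higher and 25.6% lower). The rises were 0.57 ± 0.0254 for *Serpinh1*, 0.49 ± 0.0194 for *Loxl2*, 0.32 ± 0.0296 for *Plod2* and 0.20 ± 0.0202 for *P4ha1* (adjusted p from 2.0e-21 to 2.6e-10). *Plod1* was at 0.07 (adjusted p = 0.021), a call lost without DKO replicate 1, ∆CT basal replicate 1 or JMO basal replicate 1 (0.05 to 0.06, adjusted p = 0.11, 0.054 and 0.091), and also with DESeq2 (0.051), library totals alone (0.24) or a fit of the compared groups (0.07). *P4ha2* was lower by 0.08 on the log2 scale (adjusted p = 0.0046), a call lost with no filter on low counts (-0.07, adjusted p = 0.076). JMO cells set most of this *P4ha2* difference, since their mean level was 1.07 of the DKO mean. The other receptor lines were nearer to DKO, at 0.998 (K1030R), 0.987 (∆CT) and 0.96 (IR), and none of them passed the main test against it. *Loxl1* at -0.07 did not pass (adjusted p = 0.11), though it did without IR basal replicate 1 (-0.10, adjusted p = 0.0046) or K1030R basal replicate 1 (-0.09, adjusted p = 0.045). At the minimum fold edgeR, DESeq2 and limma voom called 0 members here (5.67% of all genes by edgeR), while 6 had an unadjusted p under 0.05 with no minimum fold. The share of all genes at that last rule was not counted, but it is at least the 52.3% called after adjustment. For 3 of the 10, *Serpinh1*, *Plod2* and *Loxl2*, the 9 libraries of one side did not overlap the 6 of the other, as was so for 15.2% of all genes.

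Set against the sum of fibrillar collagens, most of which is *Col1a1* and *Col1a2*, all 10 genes lagged in IR, K1030R and ∆CT cells. Per 1000 counts of fibrillar collagen, *Serpinh1* had 45.4 ± 0.693 counts in DKO and 50.9 ± 1.39 in JMO cells, and 34.0 ± 0.832, 41.1 ± 1.08 and 40.5 ± 0.878 with IR, K1030R and ∆CT (mean ± SD over 3 libraries). *Lox* had 632 ± 30.4 and 586 ± 29.2, and 282 ± 10.7, 363 ± 13.7 and 352 ± 17, in the same order. Both ratios were lower in all 9 libraries of the last 3 lines than in DKO cells.

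In a fit that replaced the library size by the fibrillar collagen counts, all 10 genes were lower than in DKO cells in IR, K1030R and ∆CT, where 90.2%, 85% and 86.8% of all genes tested were lower too. This scaling moved the median of all genes to -1.13, -0.79 and -0.88 on the log2 scale, and the median of the 10 members was -0.96, -0.73 and -0.85. Relative to summed collagen *Serpinh1* lost the least of the 10, with -0.42 ± 0.0402 for IR, -0.14 ± 0.0402 for K1030R and -0.17 ± 0.0401 for ∆CT (adjusted p = 6.7e-12, 0.0016 and 3.0e-04, Benjamini-Hochberg adjusted, quasi-likelihood test of edgeR). Some collagens lagged the same sum: *Col5a2* was at -0.51, -0.14 and -0.22 in these lines, and *Col3a1* at -0.25 in K1030R cells, and their differences from *Serpinh1* were not tested. With the geometric mean of 5 collagens as the yardstick, the *Serpinh1* K1030R value was -0.07 (adjusted p = 0.084) and no longer passed the test. The differences for *Plod2* were -0.66, -0.63 and -0.63, those for *Loxl2* -0.87, -0.58 and -0.67, and those for *P4ha1* -0.97, -0.77 and -0.66. *Loxl1* was the lowest of the 10 in each line, at -1.40, -1.0 and -1.20.

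In JMO cells, where collagen was close to the DKO level, 2 genes were higher per collagen count than in DKO cells, *Serpinh1* (0.17 ± 0.0402) and *P4ha3* (0.25 ± 0.0880). *Loxl2* (-0.62), *Loxl1* (-0.47) and *P4ha1* (-0.21) were lower, beside 8.84% of all genes higher and 30.6% lower. The *P4ha3* call was lost without DKO replicate 3 (0.21, adjusted p = 0.1), JMO basal replicate 1 (0.24, 0.066) or JMO basal replicate 2 (0.23, 0.064). *Plod2* at -0.14 had an adjusted p of 0.053 and passed without DKO replicate 3, IR basal replicate 1 or 3, IR insulin replicate 2 or 3, ∆CT basal replicate 1 or 3, or JMO insulin replicate 1 or 3 (-0.14 to -0.16, adjusted p from 0.024 to 0.0497), and *Lox* at -0.11 (0.079) passed without DKO replicate 3 (-0.15, 0.026).

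Over the 9 group means, Pearson's r between log2 CPM of a gene and of summed fibrillar collagen was 0.95 for *Serpinh1*, 0.92 for *Plod2*, 0.83 for *Loxl2* and 0.82 for *P4ha1*. It was 0.49 for *Plod1* and between -0.77 and -0.32 for *P4ha2*, *P4ha3*, *Plod3*, *Lox* and *Loxl1*. These values describe 9 points that fall into a low collagen set (DKO and JMO) and a high one, and insulin and basal points of a line nearly repeat each other.

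**Figure D3:**
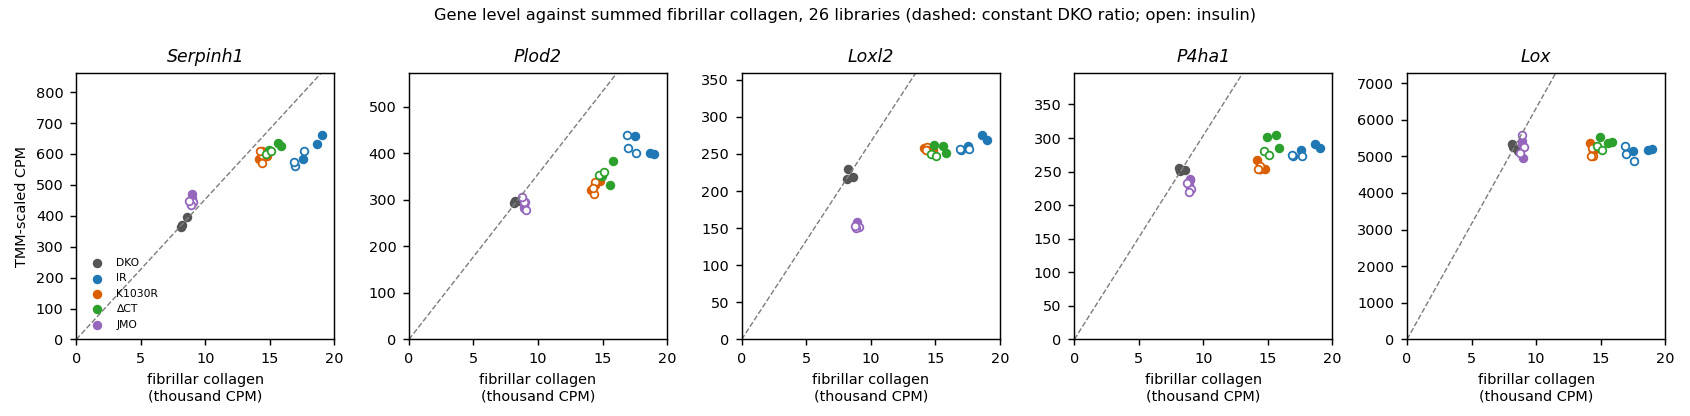
Level of 5 genes (y axis, CPM) against the summed level of fibrillar collagen genes (x axis, 1000 CPM) in the 26 libraries, with a dashed line for a constant ratio at the DKO mean. In IR, K1030R and ∆CT cells all points lie below the dashed line, *Serpinh1* nearest to it, and *Lox* runs flat.

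Between the receptor lines with high collagen, *Plod2*, *P4ha1* and *Plod1* differed in basal libraries. The share of members called was at or below that of all genes against IR, so the counts are no result about the members. The kinase-dead K1030R was lower than IR in 3 of the 10 genes, *Plod2*, *P4ha1* and *Plod1* (-0.12, adjusted p = 0.026), and higher in none, where 30.2% of all genes were called and 16.3% were lower. Without IR basal replicate 3 there were 6 calls, the added ones being *Plod3*, *Serpinh1* and *Loxl2*. The share of all genes called was not counted with a library left out, here or for ∆CT. In ∆CT against IR cells 2 were lower, *Plod2* and *Plod1* (-0.18, adjusted p = 6.9e-04; 26.1% of all genes called, 14.8% lower), and without ∆CT basal replicate 3 *P4ha1* and *P4ha3* were called as well. In ∆CT against K1030R cells 1 of the 10 differed, *P4ha1*, which was higher (3.43% of all genes called, 1.49% higher).

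Insulin for 15 min changed none of the 10 genes past the test in any line. At an adjusted p below 0.05 the count was 0 of 10 in IR, K1030R, ∆CT and JMO cells (edgeR). Of all genes, 1.87%, 0.156%, 1.01% and 0.364% were called. Without adjustment, 6, 0, 2 and 0 of the 10 had a p under 0.05 in the same test. The share of all genes at that looser rule was not counted, here or for the differences below. Counts at that rule are therefore no result about the members. limma voom also called 0 in each line, and DESeq2 called 1 in IR cells, *Loxl1*, and 0 in the others. The smallest adjusted p was that of *Loxl1* in IR cells, which had 168, 151 and 134 CPM without and 125, 133 and 134 with insulin (log2 -0.21 ± 0.0578, adjusted p = 0.058). The insulin libraries were all below the basal ones, of which replicate 3 was the lowest and just above the insulin range. Leaving that replicate out gave 4 calls in IR cells, *Plod1*, *Plod3*, *Serpinh1* and *Loxl1*. Leaving out IR insulin replicate 2, K1030R basal replicate 1, or JMO insulin replicate 1 or 3 gave 1. That was *Plod3* in the first of these and *Loxl1* in the others. The share of all genes called was not counted in any fit with a library left out. Such counts are therefore no result about the members. The difference of the insulin effect between K1030R, ∆CT or JMO and IR cells was called for 0 of the 10 by edgeR, DESeq2 and limma voom (0.37%, 0.00649% and 0.279% of all genes by edgeR), with unadjusted p under 0.05 for 2, 0 and 1; without IR basal replicate 3 there were 2 calls for K1030R, *Plod3* and *Loxl1*, and 1 for JMO, *Loxl1*.

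The contrast between the 3 lines with an intracellular domain and JMO cells could be read a second time in the insulin libraries. These libraries are separate from the basal ones but come from the same transduced lines, so they repeat any difference between those lines. Against JMO the mean of IR, K1030R and ∆CT was higher for *Loxl2* by 0.75 ± 0.0254 without and 0.74 ± 0.0259 with insulin, for *Serpinh1* by 0.43 and 0.42, for *Plod2* by 0.34 and 0.32, and for *P4ha1* by 0.25 and 0.25 on the log2 scale. Each of these 8 values passed the test (adjusted p of 5.3e-08 or smaller). With insulin the *Loxl2* libraries were at 152, 151 and 153 CPM in JMO cells, and at 255, 256 and 256 with IR, 259.5, 256 and 256 with K1030R and 250.2 and 247 with ∆CT. The 8 libraries of the first 3 lines all stood far above the 3 of JMO.

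Counting all members, 4 were higher and 3 lower than in JMO cells without insulin (43.8% of all genes called, 21.8% higher and 21.9% lower), and 4 and 2 with insulin (41.8%, 20.3% and 21.5%). The lower ones were *P4ha2* (-0.13 and -0.07), *Plod3* (-0.08 and -0.09) and, without insulin only by the test, *P4ha3* (-0.25 and -0.16). The basal call of *Plod3* was lost without IR replicate 3, K1030R replicate 1, ∆CT replicate 2 or JMO replicate 2 or 3 (-0.06 to -0.09, adjusted p from 0.051 to 0.2). Its call with insulin was lost without IR replicate 1, K1030R replicate 1 or JMO replicate 3 (-0.07 to -0.08, adjusted p from 0.052 to 0.19). That of *P4ha2* with insulin was lost without IR replicate 1 or 3, K1030R replicate 1 or 2, either ∆CT replicate or any JMO replicate (-0.07 to -0.08, adjusted p from 0.051 to 0.12). *P4ha3* with insulin passed without JMO insulin replicate 2 (-0.23, adjusted p = 0.023). *Loxl1* at 0.11 without insulin passed without IR basal replicate 3 (0.14, adjusted p = 0.0021) or K1030R basal replicate 3 (0.12, 0.045), with no filter on low counts (0.13, 0.0012) and with DESeq2 (0.11, 0.045), and with insulin it was -0.03. *Lox* at -0.05 with insulin passed without JMO insulin replicate 3 (-0.08, adjusted p = 0.03) and with library totals alone (-0.11, 0.0018).

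At the minimum fold 1 member, *Loxl2*, was called in both states (4.55% and 4.61% of all genes), and in each line alone against JMO with insulin, at log2 0.75 for IR, 0.76 for K1030R and 0.71 for ∆CT (4.67%, 3.9% and 4.27%).

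**Figure D4:**
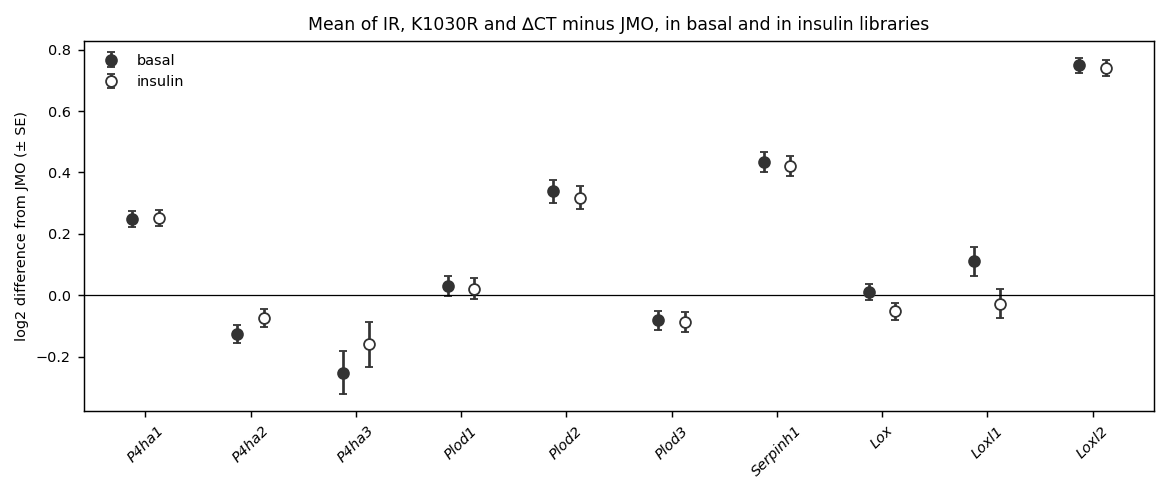
Mean of IR, K1030R and ∆CT minus JMO for each of the 10 genes (y axis, log2 difference, bars are SE), from basal libraries (filled) and from insulin libraries (open). *Loxl2* stands at 0.75 and 0.74, *Serpinh1* at 0.43 and 0.42, and *Lox* at 0.01 and -0.05.

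The rest of the collagen pathway was read in the basal comparison of IR, K1030R and ∆CT with DKO and JMO. Of 26 further processing genes 23 were tested, and 16 rose and 5 fell, where 26.7% of all genes tested were higher and 25.6% lower (52.3% called), with a median of 0.17 beside 0.01 over all genes. The rises with the largest values were *Tll1*, a procollagen C-proteinase (0.76 ± 0.0970), *P3h1*, the prolyl 3-hydroxylase of the complex with *Crtap* and *Ppib* (0.61 ± 0.0318), and *Sparc*, a secreted collagen-binding protein (0.45 ± 0.0152). *Tll1* was also higher in JMO than in DKO cells (1.14), and its difference from JMO alone was 0.19 (adjusted p = 0.17), so DKO cells set most of its value. *Sparc* had 1404 ± 9.60 CPM in DKO, 2042 ± 51.0 in IR and 1487 ± 10.7 in JMO cells (SD, n = 3). The falls with the largest values were *Pcolce2*, an enhancer of the C-proteinase (-1.47 ± 0.0461), *Adamts14*, a procollagen N-proteinase (-0.62 ± 0.0447), and *Tmem38b*, an endoplasmic reticulum cation channel (-0.26 ± 0.0549). *Pcolce2* went from 25.3 ± 1.12 CPM in DKO to 6.92 ± 0.938 in IR cells and was the one gene of this list past the minimum fold. *P4hb*, the shared partner of the 3 prolyl hydroxylase subunits (chosen after its value was seen), rose by 0.30 ± 0.0164.

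Hypoxia is known to induce the members *P4ha1*, *P4ha2*, *Plod1*, *Plod2*, *Lox* and *Loxl2*, and its part in these data was not tested. Other genes known to be induced by hypoxia were called about as often as all genes. Of 18 listed 17 were tested, and 5 rose and 5 fell (median -0.05), beside the same 26.7% and 25.6% of all genes. *Adm* (0.40 ± 0.0716), *Ndrg1* (0.32 ± 0.0232) and *Car9* (0.80 ± 0.265), the last at group means of 0.245 to 0.549 CPM and with no value against DKO past the test in any single line, rose the most, and *Hk2* (-0.54 ± 0.0605), *Slc2a1* (-0.30 ± 0.0291) and *Kdm3a* (-0.21 ± 0.0294) fell the most. Of 11 genes for supply of the cofactors 10 were tested, and 5 rose and 2 fell (median 0.10), again beside 26.7% and 25.6%. The isocitrate dehydrogenases *Idh2* (0.53 ± 0.0212) and *Idh1* (0.50 ± 0.0215), which make 2-oxoglutarate, rose. The iron exporter *Slc40a1* was at 0.33 ± 0.0526, but its values against DKO were 0.66 in IR, -0.17 in K1030R (adjusted p = 0.092), -0.07 for ∆CT (0.51) and -0.39 for JMO, so it rose in the IR line alone among the 4. The ferritin heavy chain *Fth1*, the iron store, fell by 0.64 on the log2 scale, from 1435 ± 29.5 CPM in DKO and 1843 ± 28.6 in JMO to 1089 ± 56.2 in IR cells, and the ascorbate transporter *Slc23a2* was at -0.21 ± 0.0257. *Fth1* has near-identical pseudogene copies, so the split of its reads is uncertain.

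**Figure D5:**
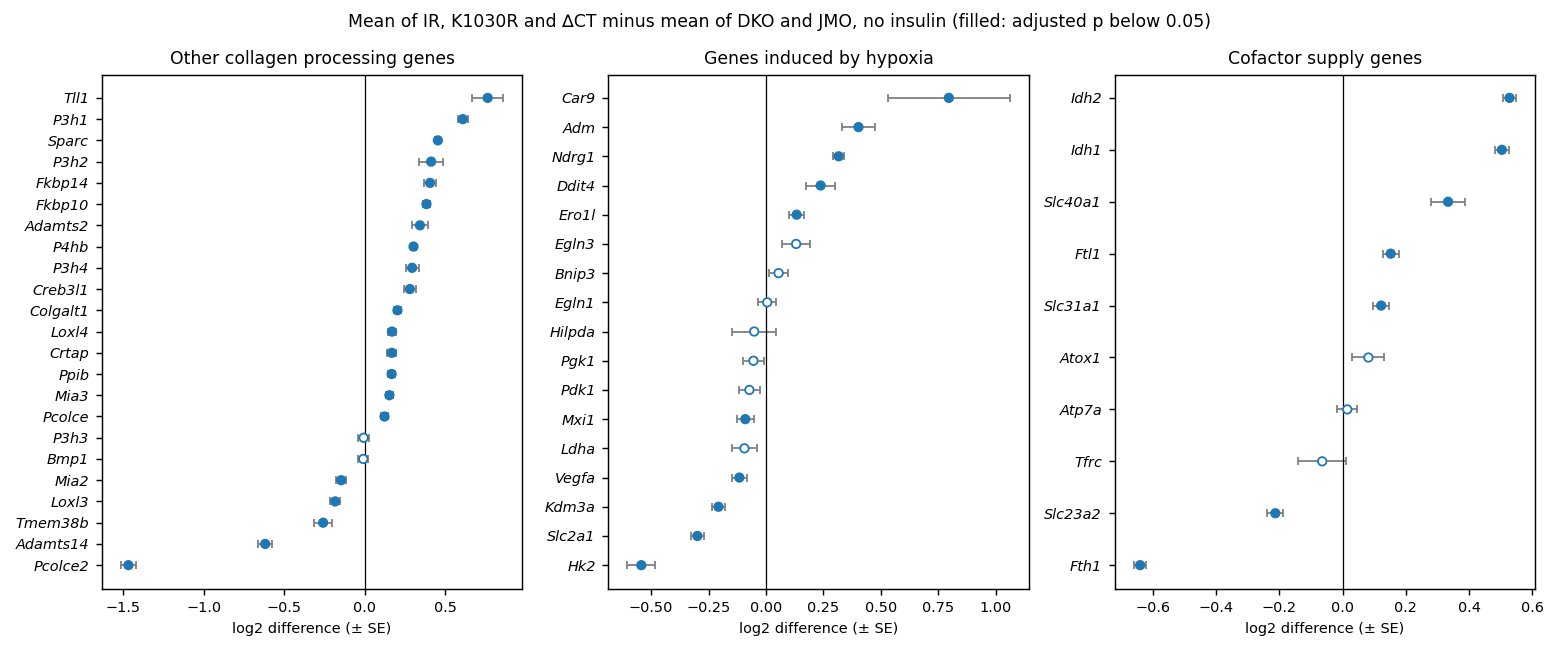
Log2 difference (x axis, bars are SE) between the mean of IR, K1030R and ∆CT and the mean of DKO and JMO without insulin for 23 other collagen processing genes, 17 genes induced by hypoxia and 10 cofactor supply genes; filled points have an adjusted p below 0.05. *Pcolce2* at -1.47 and *Tll1* at 0.76 bound the first panel, and filled points lie on both sides of zero in all panels.

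Across the 5 basal groups *Loxl2* and *Serpinh1* had the widest span of group means among the members, 0.79 and 0.73 on the log2 scale, wider than 81.5% and 79.0% of all genes tested. *Plod2* spanned 0.51, *Loxl1* 0.37, *P4ha3* 0.35, *P4ha1* 0.34, *Plod1* 0.21, *P4ha2* 0.16 and *Plod3* 0.14. The genes most like *Loxl2* over log2 CPM of the 26 libraries were *Tmsb10* (r = 0.981), *Chd3* (r = 0.975) and *Ank* (r = 0.972), and those most like *Serpinh1* were *Herpud1* (r = 0.976), *Tecr* (r = 0.974) and *Tspyl4* (r = 0.974). The 26 points share 5 lines, so these values describe likeness between lines.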

How the data were processed

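Poly(A) RNA of 26 mouse brown preadipocyte libraries in 9 groups was sequenced as 100-base single-end reads. The authors trimmed reads with fastp, assigned them to the Ensembl 98 mouse transcriptome with kallisto and deposited gene-level expected counts from tximport, of which 79.9% were whole numbers. Versions of fastp and kallisto are not given in the sources used here. Groups came from the sample labels.

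Counts were rounded, and 15402 of 52962 genes with CPM above 0.5 in at least 4 libraries (8.61 to 12.3 counts) were kept, as in the study's methods. edgeR 4.0.16 (R 4.3.3) fitted 1 mean per group over all 26 libraries with TMM factors; its quasi-likelihood test and glmTreat (minimum fold 1.5) were adjusted by Benjamini-Hochberg over all genes. The biological coefficient of variation was 4.44%. DESeq2 1.42.0, limma 3.58.1 voom, other scalings, no filter, fewer groups, a replicate block and single libraries left out were alternatives. On simulated counts for the mean of IR, K1030R and ∆CT against that of DKO and JMO, 100 of 100 genes changed by log2 0.4 and 100 of 100 changed by 0.8 were called. The simulation gave every gene the same spread and changed only genes above a count limit. It held no change below log2 0.4, so it cannot tell how often the smaller changes of most members would be called.

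Replicates differed by more than sampling noise (chi-square per degree of freedom 2.93 to 23.5 over 25 pairs). Positions and transcript lengths are from GENCODE M21 (GRCm38). The members and lists were chosen with earlier results of these data known. Named genes were all members, 5 collagens, up to 3 rises and 3 falls per other list, and the 3 genes nearest to the 2 members of widest span.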

Additional observations from a re-analysis of the deposited data

How the results depend on the processing

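Calls that ended when a single library was left out stand beside the results. Other settings ended few: no filter ended those of *P4ha2* in JMO against DKO (adjusted p = 0.18) and in IR, K1030R and ∆CT against DKO and JMO (0.076), of *Plod3* against JMO without (0.16) and with insulin (0.24) and of *P4ha2* against JMO with insulin (0.46); DESeq2 ended that of *Plod1* against DKO and JMO (0.051), of *P4ha2* in JMO against DKO (0.093), and of *P4ha2* (0.12) and *Plod3* (0.068) against JMO with insulin; library totals alone (0.24) and a fit of the groups compared (0.07) ended that of *Plod1* against DKO and JMO, and median-ratio factors that of *P4ha2* against JMO with insulin (0.059). Library totals alone added calls of *P4ha2* in IR against DKO (-0.10, adjusted p = 0.025), of *Plod3* (-0.08) and *Loxl1* (-0.11) against DKO and JMO (0.019 each) and of *P4ha3* (-0.21, 0.017) and *Lox* against JMO with insulin, and *Col1a1* and *Col1a2* alone as the yardstick added *Plod2* (-0.18, 0.021) and *Lox* (-0.15, 0.027) in JMO against DKO. The main counts of members called stayed within 1.5 times except as follows. For insulin in IR cells the 0 calls became 1 (*Loxl1*) with no filter on low counts, with the replicate block and with DESeq2, and 0 to 4 with single libraries left out. The insulin effect in JMO minus that in IR went from 0 to 1 with no filter and 0 to 1 with libraries left out, and that in K1030R minus IR 0 to 2. With libraries left out, K1030R against DKO at the minimum fold gave 0 to 1, K1030R against IR 3 to 6, and ∆CT against IR 2 to 4. Shares of all genes were not counted in those fits. The minimum-fold call of *Loxl2* in ∆CT against JMO with insulin went from 1 to 0 with library totals alone. The ratio of *Lox* to *Serpinh1* per kilobase in DKO cells was 6.68 with the longest and 4.57 with the mean transcript length.

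Small fold changes that did not pass a test changed sign. With library totals alone these were *Plod3* in IR (-0.024), *P4ha3* (-0.024), *Plod1* (-0.010) and *Plod3* (-0.00079) in ∆CT against DKO, *Lox* (-0.024) in IR, K1030R and ∆CT against DKO and JMO, and, against JMO alone, *Plod1* (-0.0017) and *Lox* (-0.023) without and *Plod1* (-0.035) with insulin. With no filter they were *P4ha2* (0.0034) and *Lox* (0.0060) in K1030R against DKO, and with the geometric mean of 5 collagens *P4ha2* (0.062), *Plod1* (0.044) and *Plod3* (0.042) per collagen count in JMO against DKO. With single libraries left out, the values against DKO ran from -0.018 to 0.065 for *Plod3* in IR, -0.026 to 0.022 for *P4ha2* and -0.018 to 0.011 for *Lox* in K1030R, -0.042 to 0.0033 for *P4ha2*, -0.079 to 0.076 for *P4ha3* and -0.0077 to 0.069 for *Plod1* in ∆CT, and -0.027 to 0.036 for *Lox* in JMO. They ran from -0.0098 to 0.022 for *Lox* against DKO and JMO, -0.028 to 0.036 for *Lox* against JMO, -0.069 to 0.017 for *Loxl1* against JMO with insulin, and -0.025 to 0.0089 for *P4ha2* per collagen count in JMO. The cause was not tested.

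Replicate numbers were shared between groups, but the labels do not tie them to a batch: the residual correlation of same-numbered libraries had a median of -0.0011 over 100 pairs, and 7 of 26 libraries correlated best with their own number. The replicate block added 1 call each to insulin in IR cells (*Loxl1*), to IR, K1030R and ∆CT against JMO without insulin (*Loxl1*) and to JMO against DKO per collagen count (*Plod2*), and left every other count of calls as it was. Each receptor is 1 line, so line and receptor cannot be told apart, and with 3 libraries per group small changes of *P4ha3*, at about 10 CPM, were the least precise.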
